A study of Homo sapiens with 6 samples.

Results

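The genes described here carry out the last steps that put peptides on major histocompatibility complex (MHC) class I molecules. They are 10 genes chosen by symbol, with earlier results of these data known. Among them are the transporter subunits TAP1 and TAP2, the peptide editors TAPBP (tapasin) and TAPBPL (TAPBPR) and the trimming aminopeptidases ERAP1 and ERAP2. The others are the folding factors CALR, CANX and PDIA3, and the class I transactivator NLRC5. All 10 matched a gene identifier, out of 61541 in the count files. RNA came from RCC4, an established line of clear cell renal carcinoma epithelium, grown either untreated (3 libraries) or with interferon gamma (IFNγ) at 1000 U/mL plus tumour necrosis factor (TNF) at 25 ng/mL for 24 h (3 libraries). Both groups were the same line, grown in DMEM with serum, and the cytokines were given only together, so the data cannot assign a change to either of them. Poly(A) RNA molecules were read directly on nanopores, and the values are reads per gene.

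Proteasomes cut cytosolic proteins into peptides, and the TAP1-TAP2 heterodimer pumps these into the endoplasmic reticulum. There ERAP1 and ERAP2 shorten their N-terminal ends, while calnexin (CANX), calreticulin (CALR) and ERp57 (PDIA3) fold the class I heavy chain and hold it beside the transporter with tapasin. TAPBPL edits peptides away from that complex, and NLRC5 drives transcription of class I genes and several of their partners. IFNγ is known for raising this pathway, in part through IRF1, and TNF acts mainly through NF-kappaB.

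Library totals ran from 3626000 to 4406296 counts, and 3 counts, the limit that a count of 0 allows for counting error alone, were worth between 0.677 and 0.866 CPM (counts scaled to 1000000 per library after TMM adjustment of library sizes). All 12 markers of renal carcinoma epithelium looked for were present in every library, PAX8, CA9, VIM and KRT8 among them. Of these, VIM was called higher (4616 to 7314 CPM) and PAX8 (145.5 to 84.2 CPM) and KRT19 (367.0 to 174.2 CPM) lower in treated libraries, and their part in the results below was not tested. Of 12 markers of leukocytes, endothelium, fibroblasts, muscle and red cells, 9 had 0 counts throughout, and their summed level, nearly all of it COL1A1 and ACTA2, ran from 53.5 to 67.6 CPM in untreated and from 28.0 to 51.4 CPM in treated libraries. The 0 of CD68, a macrophage marker, says little, since 64.7% of its last 1000 exonic bases lie under another gene on its strand. Untreated replicate 3 stood apart from the other untreated libraries. Its chi-square per degree of freedom against the other untreated libraries was 24.7 and 21.5, against 3.48 between those 2 and 10.3, 12.9 and 15.9 between the treated libraries, and its count-weighted exonic length was 4484 bases, against 4238 and 4275. It touches several results below, and its values are given beside them.

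Promoter windows of 300 bases (250 before and 50 after a gene's start; RefSeq, GRCh38.p14) were matched by symbol for 8 of the 10 genes, all but NLRC5 and PDIA3. They are shown first because the members differ in which interferon, NF-kappaB and stress motifs these windows hold. The interferon-stimulated response element (ISRE), searched as GAAANNGAAA on both strands, is the sequence that interferon regulatory factors read. It was found in windows of 5 genes, and each site is printed on the strand on which it reads GAAANNGAAA, with the motif in capitals.
TAP1 (chr6:32853819-32853848, + strand): agggGAAAGCGAAATCGAAAgcggccgcct
TAP2 (chr6:32838778-32838807, - strand): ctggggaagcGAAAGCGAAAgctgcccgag
TAPBP (chr6:33314079-33314108, - strand): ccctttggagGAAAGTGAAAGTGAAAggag
ERAP1 (chr5:96807924-96807953, + strand): ccccaggaccGAAAGTGAAAgtggagcccg
ERAP2 (chr5:96876460-96876489, + strand): tcttagaacaGAAAGTGAAAgcaaaagtaa
TAP1 and TAPBP each held 2 overlapping copies, while TAP2, ERAP1 and ERAP2 held 1. TAPBP, ERAP1 and ERAP2 shared the same 10 letters, and TAP2 shared its own with 1 of the TAP1 copies. The motif lay at -134 to -119 from the TAP1 start, -58 to -49 for TAP2, -20 to -5 for TAPBP, -30 to -21 for the second ERAP2 window and 3 to 12 for ERAP1, downstream of its RefSeq start. Of 35116 windows, 3.57% held an ISRE. By gene, 308 of 7966 tested genes with a window (3.87%) and 78 of 414 genes called higher with a window (18.8%) held at least 1.

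A motif of the NF-kappaB family, searched by its usual degenerate letters on both strands, was found in windows of 5 of the 8 genes and in 11.3% of all windows. By gene, 17.4% of tested genes and 26.1% of genes called higher held it in at least 1 window. The sites of the 4 genes with the larger responses among these are printed on the gene's strand, with the motif in capitals.
TAP1 (chr6:32853757-32853786, - strand): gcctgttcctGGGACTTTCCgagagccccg
TAPBP (chr6:33314115-33314144, - strand): taaccagagcGGGGATTTCCaccgcccctc
TAPBPL (chr12:6451967-6451996, + strand): gaaatcaccaGGGGATTTCCgggtgaggtg
ERAP1 (chr5:96807999-96808028, - strand): gccttagccaGGGGCTTCCCcgcctgccgc
TAPBP and TAPBPL carried the same 10 letters, and the TAP1 window held a second match, at 23 to 32. The fifth gene was CANX. The gamma-activated site TTCNNNGAA was found, among the 8 genes, in TAP1 alone (its second window, chr6:32852942-32852950). It was present in 7.66% of all windows and, by gene, in 8.22% of tested genes and 18.4% of genes called higher.

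CALR and CANX held the endoplasmic reticulum stress element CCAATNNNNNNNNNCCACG, which is read by NF-Y with ATF6 and was searched on both strands. Its first 5 letters are themselves the CCAAT box. It was found in 27 of 35116 windows (0.0769%), which by gene were 13 of 7966 tested genes with a window and 0 of 414 called higher.
CALR (chr19:12938379-12938408, - strand): caccgaCCAATGATGGTCGACCACGcgtgg
CANX (chr5:179698773-179698802, + strand): cccggCCAATCTTCACACTCCACGaagaat
Longer stretches just upstream of TAP1 and CALR show where these sites lie. In TAP1 the capitals mark the overlapping ISRE copies, read here on the gene's strand, and in CALR they mark 4 CCAAT boxes, 1 of them reversed. A CCAAT box is common, in 34.6% of windows and 43.6% of tested genes, and the TAP1 stretch (chr6:32853949-32853953, left in lower case) and the ERAP1 window also held 1.
TAP1 (chr6:32853817-32853954, - strand): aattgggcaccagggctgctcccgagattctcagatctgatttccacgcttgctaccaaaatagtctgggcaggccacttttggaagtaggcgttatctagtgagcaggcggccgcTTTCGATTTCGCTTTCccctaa
CALR (chr19:12938359-12938577, + strand): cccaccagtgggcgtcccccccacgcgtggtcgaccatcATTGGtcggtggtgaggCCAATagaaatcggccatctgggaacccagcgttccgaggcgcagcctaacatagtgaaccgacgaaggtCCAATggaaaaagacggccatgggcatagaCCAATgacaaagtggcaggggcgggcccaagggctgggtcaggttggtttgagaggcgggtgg
These matches describe letters in a window, and binding was not measured.

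The cytokines were followed by higher RNA of the transporter, both editors and the transactivator. TAP1, TAP2, NLRC5, TAPBPL and TAPBP rose by 24.0, 11.4, 8.5, 4.33 and 4.31 times in edgeR's fit, in that order. The peptidases ERAP2 and ERAP1, with fitted ratios of 3.01 and 2.90, and the folding factors PDIA3 and CALR, with 1.81 and 1.46, did not pass the threshold, and CANX had a ratio of 1.04. The threshold was an adjusted p under 0.05 in the quasi-likelihood F test of edgeR adjusted by Benjamini and Hochberg's method (BH) across the 10067 genes kept by its low-count filter. Of the 10 genes, all 10 were tested, 5 were called higher and 0 lower, where 5.58% of all tested genes were called higher, 2.55% lower and 8.14% in either direction. None of the 10 was lower at an unadjusted p under 0.05, and DESeq2 and limma voom also called 0 lower. The median log2 fold change was 1.85 over the 10 genes and -0.03 over all tested genes. No treated library fell within or below the untreated range for 9 of the 10, CANX being the exception, where 13.9% of all tested genes did so. ERAP2, among the 9, passed the low-count filter through the treated libraries, so its separation and its share in the median are not independent of that filter. In these bulk libraries a change in the number of responding cells and a change in RNA per cell cannot be told apart.

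**Figure D1:**
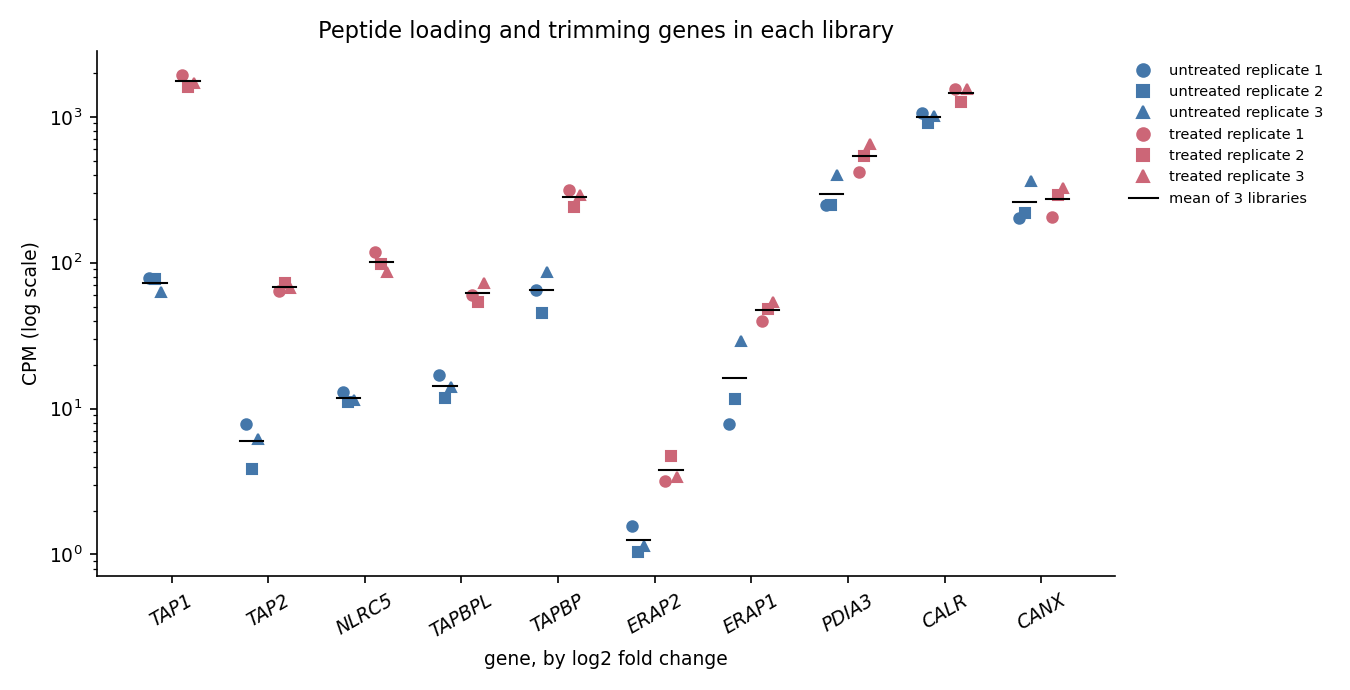
CPM (log scale) of the 10 genes in each of the 6 libraries, ordered by log2 fold change, with untreated libraries in blue, treated in red, a marker shape for each replicate number and black bars at the mean of 3 libraries. The groups are separate for all genes but CANX, and untreated replicate 3 (blue triangle) lies above the other untreated libraries for ERAP1, PDIA3, TAPBP and CANX.

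TAP1 (ENSG00000168394; chromosome 6, 32845209 to 32853816, minus strand) encodes the transporter subunit that pairs with TAP2 to move peptides. Its level in untreated replicates 1, 2 and 3 was 79.1, 77.1 and 62.6 CPM, and in treated replicates 1, 2 and 3 it was 1946, 1602 and 1712 CPM. The groups were far apart and each was tight, with coefficients of variation of 12.3% and 10.0%. The log2 fold change was 4.59 (SE 0.19), with an adjusted p of 3.34e-06 in the quasi-likelihood F test of edgeR, the fifth smallest p of all genes tested. Each treated library was between 22.0 and 26.7 times the untreated mean.

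TAP2 (ENSG00000204267; chromosome 6, 32821833 to 32838739, minus strand) had 30, 15 and 27 counts without cytokines and 223, 324 and 234 with them. On the CPM scale these were 7.86, 3.88 and 6.15 against 64.4, 73.1 and 66.7, so the lowest treated library was well above the highest untreated one. The log2 fold change was 3.51 (SE 0.27; BH-adjusted p 6.02e-05). TAP2 shares exons with another gene. A gene annotated on the same strand, ENSG00000250264, which runs from 32813767 to 32838822, covers 2023 of the 6344 exonic bases of TAP2 and had 0 counts in all 6 libraries. Under the counting options in the file headers, a read that touches exons of both genes is assigned to neither. The shared bases start 4106 exonic bases from the 3′ end of TAP2 and none of its last 1000 exonic bases are shared, so the TAP2 count leaves out reads that extend into them, and their number is not known here.

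Within each library the ratio of TAP1 to TAP2 counts was compared, since it does not depend on library scaling. The log2 ratio was 3.31, 4.27 and 3.32 in untreated and 4.91, 4.45 and 4.68 in treated libraries. The groups did not overlap, and the mean moved from 3.63 ± 0.549 to 4.68 ± 0.232 (SD, n = 3 each), a difference of 1.05. The 2-sided exact permutation test gave p = 0.1, the smallest that 3 against 3 libraries allow, and 0.4 once adjusted (Benjamini-Hochberg) for the 4 pairs compared. Untreated replicate 2, with 15 TAP2 counts, lay nearest the treated libraries.

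TAP1 and TAP2 lie in the MHC class II region near the immunoproteasome genes PSMB8 and PSMB9. The RefSeq starts of TAP1 and PSMB9 are 488 bases apart and point away from each other, and PSMB9, which encodes an inducible catalytic subunit, rose by 3.93 on the log2 scale (SE 0.18; BH-adjusted p 5.25e-06). PSMB8, a second inducible subunit, rose by 2.79 (SE 0.18; BH-adjusted p 2.00e-05). Of the other 5 neighbours listed, HLA-DMA and BRD2 were tested, with log2 fold changes of 0.61 and 0.38 and BH-adjusted p of 0.565 and 0.257, while HLA-DOB, HLA-DMB and the pseudogene PPP1R2P1 did not pass the low-count filter.

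TAPBP (ENSG00000231925; chromosome 6, 33299694 to 33314254, minus strand), the bridge between the transporter and the heavy chain, had 64.9, 45.0 and 86.1 CPM without cytokines and 312.8, 241.3 and 291.8 CPM with them. Its log2 fold change was 2.11 (SE 0.25; BH-adjusted p 0.000968). The untreated spread was wide, with replicate 3 highest at 1.57 times the mean of the other 2, yet the lowest treated library was clear of it. TAPBPL (ENSG00000139192; chromosome 12, 6451690 to 6466517, plus strand) had 17.02, 11.9 and 14.1 CPM without cytokines and 59.8, 53.7 and 73.0 CPM with them. Its log2 fold change of 2.11 (SE 0.23; BH-adjusted p 0.000507) matched that of TAPBP to 2 decimals, although TAPBPL was less abundant and lies outside the MHC. The log2 ratio of TAPBP to TAPBPL counts was 2.14 ± 0.394 without and 2.18 ± 0.195 with cytokines (SD, n = 3 each). The groups overlapped, and the difference of 0.039 gave p = 0.8 in the exact permutation test and 0.8 after adjustment. The CD27 gene, with 0 counts, covers 0.910% of the TAPBPL exonic bases on the same strand, and the pseudogene HMGB3P22, also with 0 counts, 1.84% of those of CANX.

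NLRC5 (ENSG00000140853; chromosome 16, 56989485 to 57083531, plus strand) is the transactivator that assembles on class I promoters. It had 13.1, 11.1 and 11.4 CPM without cytokines and 118.4, 98.0 and 86.7 CPM with them, from 43 to 50 and from 304 to 434 counts. Untreated libraries differed little (coefficient of variation 9.02%), and every treated library was at least 7.31 times their mean. The log2 fold change was 3.09 (SE 0.21; BH-adjusted p 3.62e-05).

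The DNA-binding partners of NLRC5 on class I promoters, the RFX, NF-Y, CREB1 and ATF1 factors, formed a list of 8, of which 7 were tested. RFX5 was called higher, with 23.8, 24.0 and 25.7 CPM without cytokines and 39.0, 40.2 and 41.6 CPM with them, a log2 fold change of 0.71 (SE 0.18; BH-adjusted p 0.047). That call was held in 7 of 16 alternative fits, and its adjusted p ran from 0.00709 to 0.194 over them. The other 6 did not pass. The list's median log2 fold change was 0.17, but -0.105 without treated replicate 2, -0.013 without untreated replicate 1 and 0.413 without untreated replicate 3. Untested RFXAP had 8, 8 and 16 counts without cytokines and 6, 9 and 2 with them, or 2.095, 2.068 and 3.644 against 1.733, 2.031 and 0.5704 CPM.

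ERAP1 (ENSG00000164307; chromosome 5, 96760810 to 96808100, minus strand), the aminopeptidase that trims most precursors, had 7.86, 11.6 and 28.9 CPM without cytokines and 39.9, 47.9 and 53.9 CPM with them. Its counts were 30, 45 and 127 against 138, 212 and 189, so untreated replicate 3 stood at 2.97 times the mean of the other untreated libraries while remaining below every treated one. The log2 fold change was 1.54 (SE 0.42) with a BH-adjusted p of 0.0594, which did not pass. Without untreated replicate 3 it was 2.27 with an adjusted p of 0.00017. Over all tested genes with a defined ratio, 13.9% stood more than 2 times higher in that library than in the mean of the other 2. The part of that library in the ERAP1 value was not tested beyond leaving it out.

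ERAP2 (ENSG00000164308; chromosome 5, 96875986 to 96919703, plus strand), whose protein can pair with ERAP1 and prefers other N-terminal residues, was the least abundant of the 10. It had 6, 4 and 5 counts without cytokines and 11, 21 and 12 with them, or 1.57, 1.03 and 1.14 against 3.18, 4.74 and 3.42 CPM. The groups did not overlap, and the log2 fold change was 1.59 (SE 0.42; BH-adjusted p 0.0537). Such counts pass the low-count filter through the treated libraries, so being tested is not independent of being higher there. The adjusted p fell on both sides of the threshold over 15 alternatives, from 0.0165 to 0.236, with 4 of them below it.

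The log2 ratio of ERAP1 to ERAP2 counts was 2.23, 3.34 and 4.53 in untreated libraries and 3.59, 3.31 and 3.92 in treated ones. The untreated range enclosed the treated range, and the difference in means, 0.238, gave p = 0.8 in the exact permutation test and 0.8 after adjustment. Of 8 other peptidases that meet class I precursors, most of them in the cytosol, all were tested and 1 was called. LAP3, leucine aminopeptidase, rose from 41.9, 37.2 and 47.4 to 518.4, 652.7 and 795.5 CPM, a log2 fold change of 3.96 (SE 0.23; BH-adjusted p 1.10e-05). The other 7, TPP2, NPEPPS, BLMH, THOP1, PREP, NRDC and LNPEP, had log2 fold changes from -0.35 to 0.23 and did not pass.

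**Figure D2:**
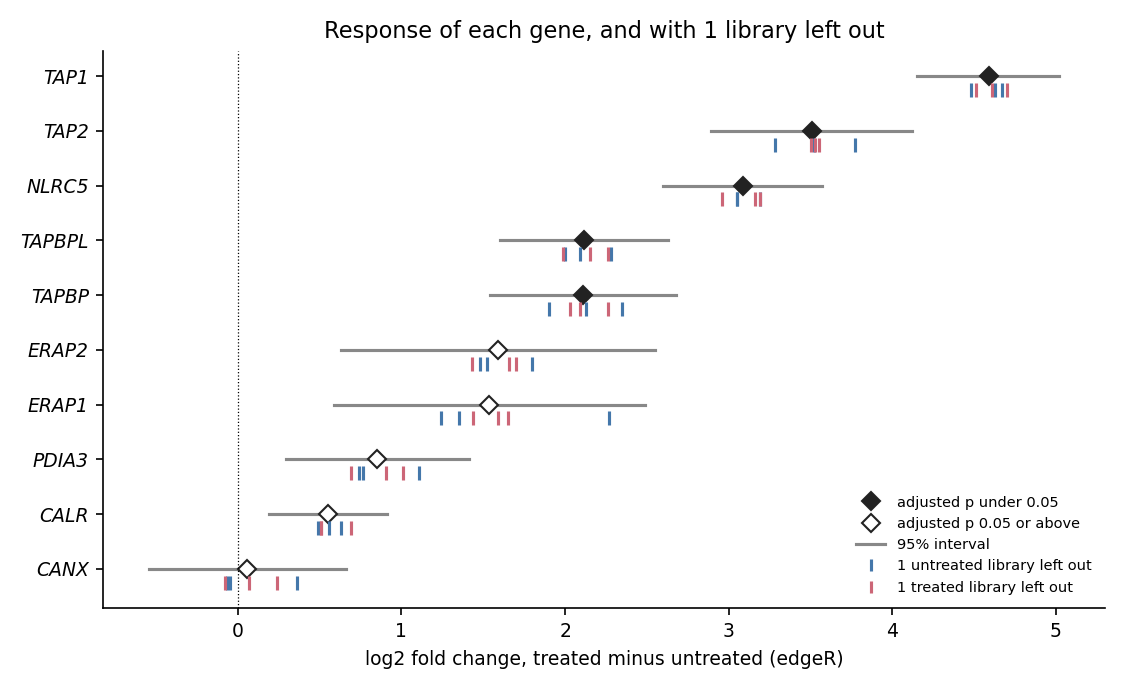
Log2 fold change of each gene in edgeR's fit (diamonds; filled where the adjusted p is under 0.05) with its 95% interval (grey), and the values with 1 library left out (ticks below; blue for an untreated and red for a treated library). TAP1 ranges from 4.48 to 4.70 when 1 library is left out, and ERAP1 from 1.24 to 2.27, its highest value being without untreated replicate 3.

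PDIA3 (ENSG00000167004; chromosome 15, 43746394 to 43773279, plus strand), the disulphide isomerase bound to tapasin, had 246.9, 248.2 and 396.9 CPM without cytokines and 416.4, 539.6 and 655.4 CPM with them. Untreated replicate 3 was 1.60 times the mean of the other untreated libraries and lay just under treated replicate 1. The log2 fold change was 0.85 (SE 0.25; 95% interval 0.29 to 1.41) with a BH-adjusted p of 0.0739. Without untreated replicate 3 it was 1.11 with an adjusted p of 0.00493.

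CALR (ENSG00000179218; chromosome 19, 12938578 to 12944489, plus strand), the soluble lectin of the loading complex, had 1067, 911.6 and 1014 CPM without cytokines and 1561, 1267 and 1554 CPM with them. The groups did not overlap. With a coefficient of variation of 7.92% untreated and 11.5% treated, the difference of 0.55 on the log2 scale (SE 0.16; 95% interval 0.19 to 0.91) had a BH-adjusted p of 0.0734.

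CANX (ENSG00000127022; chromosome 5, 179678628 to 179731641, plus strand), the membrane-bound lectin that receives new heavy chains, had 202.9, 220.5 and 363.0 CPM without cytokines and 204.5, 289.6 and 325.2 CPM with them. The untreated range enclosed the treated range, and untreated replicate 3 was the highest of all 6. The log2 fold change was 0.059 (SE 0.27; BH-adjusted p 0.951), and its 95% interval, -0.54 to 0.66, covers the fitted value of CALR. The log2 ratio of CALR to CANX counts was 1.97 ± 0.46 without and 2.44 ± 0.431 with cytokines (SD, n = 3 each), overlapping, with p = 0.4 in the exact permutation test and 0.8 after adjustment.

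**Figure D3:**
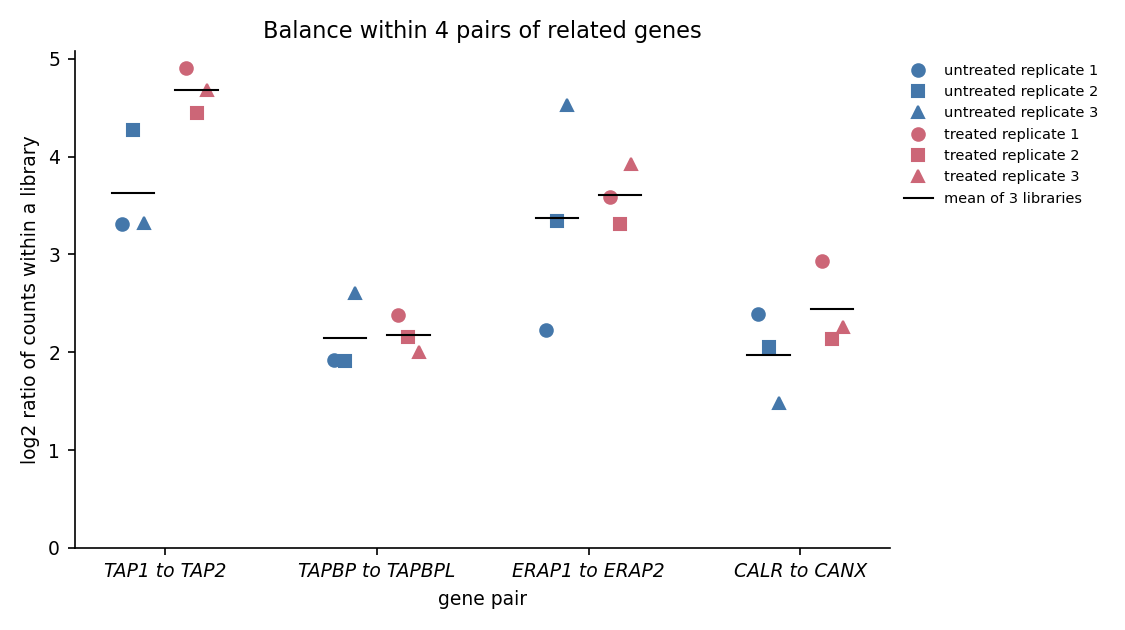
Log2 ratio of the counts of 2 related genes within each library, for 4 pairs, with untreated libraries in blue, treated in red and black bars at the mean of 3 libraries. The groups are separate for TAP1 to TAP2 (3.63 against 4.68 in the mean) and overlap in the other 3 pairs.

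General folding enzymes of the endoplasmic reticulum were set beside CALR, CANX and PDIA3. Of 16 listed, 14 were tested and 0 were called in either direction by edgeR, while 3 (ERP44, MANF and HSPA5) had an unadjusted p under 0.05, as did 1995 of the 10067 genes tested. DESeq2 and limma voom also called 0. All 14 had a positive log2 fold change, from 0.036 to 0.70 with a median of 0.32, where 4765 of 10067 tested genes were positive. With library totals alone 11 of the 14 were positive, and with 1 library left out between 11 and 13 were. Each treated library exceeded each untreated one for 3 of the 14, beside 13.9% of all tested genes. P4HB, the most abundant, had 728.1 ± 82.2 CPM without and 914.9 ± 97.7 CPM with the cytokines, and PPIB had 582.7 ± 24.7 and 668.7 ± 79.9 (SD, n = 3 each). Their log2 fold changes were 0.33 and 0.20, with BH-adjusted p of 0.326 and 0.595. TXNDC5, with at most 1 count in any library, has 99.5% of its last 1000 exonic bases under another gene on its strand.

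Of the 11 genes of the N-glycan cycle, which feeds glycoproteins to calnexin and calreticulin and takes them away, 10 were tested and 1 was called higher. EDEM2, which trims mannose from misfolded glycoproteins, had 77.2, 89.5 and 98.6 CPM without cytokines and 160.3, 143.5 and 207.4 CPM with them, a log2 fold change of 0.95 (SE 0.20; BH-adjusted p 0.0199). It was not called without untreated replicate 1, untreated replicate 2 or treated replicate 3 (BH-adjusted p 0.0762, 0.0922 and 0.0894). The median of the list was 0.17, and between 0.087 and 0.279 with 1 library left out, lowest without treated replicate 3. Among 10 sensors and targets of the unfolded protein response 9 were tested and 0 were called by edgeR, TRIB3 with an unadjusted p under 0.05, and DESeq2 and limma voom also called 0. The median was 0.059, but -0.297 without treated replicate 3, -0.022 without treated replicate 1, -0.047 with library totals alone and -0.023 among genes without same-strand overlap. The most abundant of them, ATF4 and TRIB3, had log2 fold changes of 0.085 and -0.69 with BH-adjusted p of 0.876 and 0.241.

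Genes upstream of the pathway were tested from a list of 10, of which 7 passed the low-count filter and 4 were called higher. IRF1, the interferon regulatory factor that binds ISRE sites, rose from 32.2, 40.6 and 29.2 to 1511, 1253 and 1230 CPM, a log2 fold change of 5.29 (SE 0.22; BH-adjusted p 3.34e-06). IRF2 and STAT2 rose by 2.25 and 2.60 on the log2 scale (BH-adjusted p 0.00024 and 0.00612), and STAT2 by 3.38 without untreated replicate 3. The receptor and kinase genes IFNGR1, IFNGR2 and JAK1 did not pass. Untreated replicate 3 stood at 3.13 times the mean of the other untreated libraries for STAT2, beside 2.97 times for ERAP1. The ratio was 0.801 for IRF1, beside 0.802 for TAP1. It was 2.4 for IFNGR1 and for JAK1, which were not called, 1.18 for IRF2 and 0.881 for IFNGR2. Among the other members it was 1.05, 0.941, 0.977 and 1.57 for TAP2, NLRC5, TAPBPL and TAPBP. For ERAP2, CALR, PDIA3 and CANX it was 0.874, 1.03, 1.6 and 1.71. Over all tested genes with a defined ratio, 26.1% stood above 1.5. Whether these genes share a cause in that library was not tested.

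Among the clients and suppliers of the loading machinery, the genes called higher were 6 of the 7 class I heavy chain and B2M genes, with log2 fold changes from 2.13 to 3.95, and 4 of the 5 immunoproteasome genes, from 1.58 to 3.93. HLA-G and PSMB10 were not tested. HLA-F rose by 3.95, HLA-B by 3.19, HLA-E by 2.99 and HLA-C by 2.13 (BH-adjusted p 6.44e-06, 6.44e-06, 1.45e-05 and 0.00013). These are close paralogs whose reads could be split or lost. HLA-G had 0 counts in all 6 libraries. PSME2, a proteasome activator subunit with a log2 fold change of 2.51, was not called without untreated replicate 2 or without treated replicate 1 (BH-adjusted p 0.0703 and 0.051), and its log2 fold change was 3.23 without untreated replicate 1. With 11, 4 and 4 counts without cytokines and 41, 40 and 24 with them, PSME2 passed the low-count filter through the treated libraries, so its being tested is not independent of being higher there. TAP1, with 4.59, was above every one of these 10 called genes in fitted log2 fold change, and CALR, CANX and PDIA3 were below every one, differences that were not tested.

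**Figure D4:**
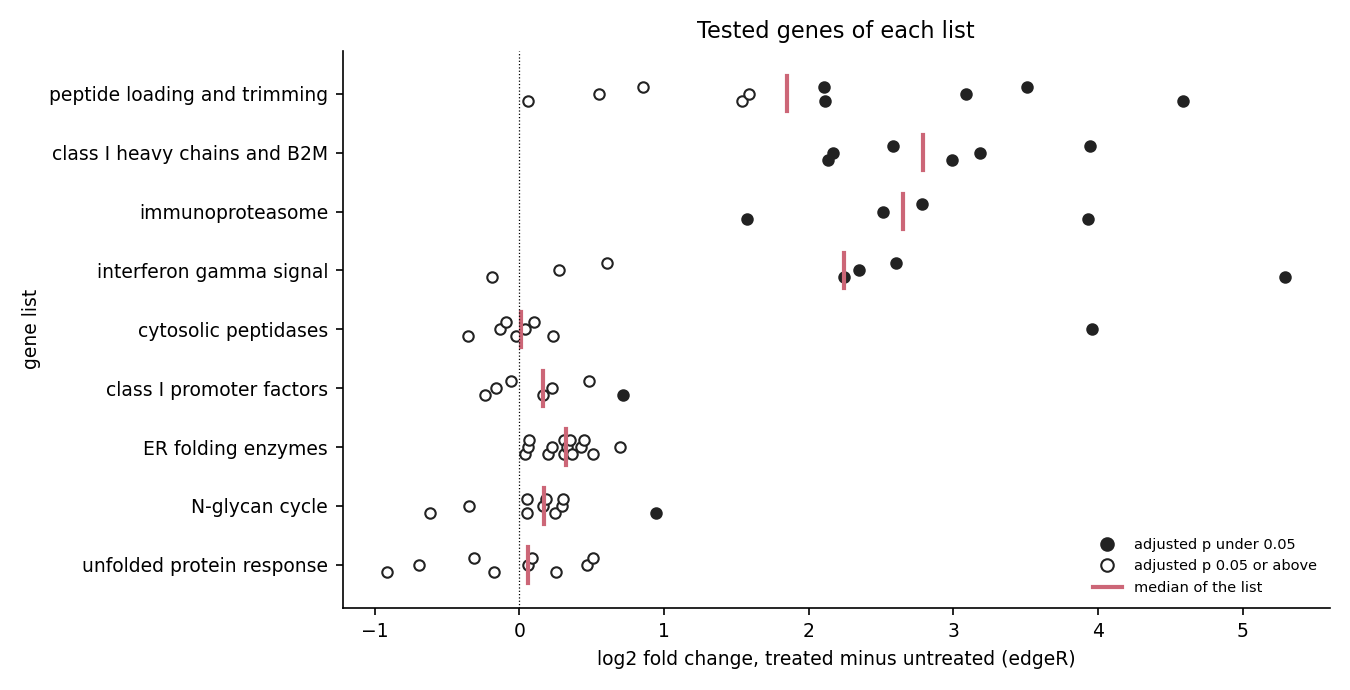
Log2 fold changes of the tested genes of 9 lists (circles, filled where the edgeR adjusted p is under 0.05) with each list's median (red bar). The peptide loading and trimming genes spread from 0.059 to 4.59, the heavy chain and immunoproteasome genes lie at 1.58 or above, and the medians of the 3 endoplasmic reticulum lists lie between 0.059 and 0.32.

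The order of levels was compared per kilobase of exonic length, with CPM given beside it for several genes. Each read stands for a molecule, and the exonic length joins all annotated isoforms, so this scale places genes with many long isoforms lower. In untreated cells the order, in CPM per kilobase, was CALR (356 ± 28.2), PDIA3 (25.3 ± 7.33), CANX (19.0 ± 6.38), TAP1 (15.7 ± 1.93), TAPBP (13.3 ± 4.17), TAPBPL (4.50 ± 0.806), ERAP1 (2.03 ± 1.41), NLRC5 (0.958 ± 0.0864), TAP2 (0.940 ± 0.314) and ERAP2 (0.179 ± 0.0409; SD, n = 3 each). Library ranges of neighbours overlapped from PDIA3 through TAPBP and from ERAP1 through TAP2 on this scale. In CPM, with no division by length, untreated CANX (262.1 ± 87.78) was clear of TAP1 (72.91 ± 8.967), and NLRC5 (11.86 ± 1.07) of TAP2 (5.96 ± 1.995). Untreated TAPBPL (14.34 ± 2.57) overlapped NLRC5 in CPM, and also ERAP1 (16.14 ± 11.23), which had the higher mean. In treated cells TAP1 came second on this scale with 378 ± 37.9 CPM per kilobase, below CALR with 521 ± 59.8 and without overlap. In CPM, with no division by length, the order of these 2 was the reverse, also without overlap, with 1753 ± 176 for TAP1 and 1461 ± 167 for CALR, so which of them led depends on the scale. Per kilobase, TAPBP followed with 57.3 ± 7.47, overlapping PDIA3 with 45.6 ± 10.2, and CANX (19.8 ± 4.51) overlapped TAPBPL (19.5 ± 3.10). In CPM, PDIA3 (537.2 ± 119.5) lay above TAPBP (281.9 ± 36.75) and CANX (273.1 ± 62.01) above TAPBPL (62.17 ± 9.87), each without overlap, while CANX overlapped TAPBP. TAP2 (10.7 ± 0.712), NLRC5 (8.16 ± 1.30), ERAP1 (5.94 ± 0.887) and ERAP2 (0.544 ± 0.121) came last per kilobase and did not overlap one another. In CPM, NLRC5 (101.0 ± 16.07) lay above TAP2 (68.09 ± 4.515) and above TAPBPL, also without overlap. Treated TAPBPL overlapped TAP2, which had the higher mean, and ERAP1 (47.2 ± 7.048) in CPM. The TAP2 level leaves out reads that extend into its shared exons, while its length includes those exons.

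Genes with the most similar course were found by the distance between 6 log2 CPM values, each gene centred on its untreated mean, among 6761 tested genes that averaged 10 CPM or more. For TAP1 these were IFI35, HELZ2 and CX3CL1, at distances of 0.507, 0.646 and 0.83 and with log2 fold changes of 4.53, 4.51 and 4.56. For NLRC5 they were PSMB8, IL32 and HLA-E, for TAPBP TRIM69 and VPS9D1, and for TAPBPL RNF114, VPS9D1 and HLA-C. The nearest to TAP2 were ASPHD2, HLA-B and APOL2. BTN3A1, a butyrophilin, was closest to ERAP1 at a distance of 0.198, its log2 fold change being 1.52 with a BH-adjusted p of 0.0542. The distances compare 6 libraries in 2 groups, so the size of the response weighs most in them.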

How the data were processed

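The deposited values are counts of reads per gene, 1 file per library with no pooling. Per the file headers, the authors counted with featureCounts 2.0.1 in long-read mode, strand-specifically, over exons of Ensembl release 105 on GRCh38, with neither multi-mapping nor multi-overlapping reads counted. The submitters' processing notes name minimap2 2.24, SAMtools 1.16, featureCounts 2.0.0 and hg38. The series design text sets a read quality cut of 7. File headers use dmso in the alignment names; no label mentions a vehicle. Groups and replicate numbers came from the sample titles, which call the replicates biological. Each was grown in 3 flasks, per the labels' protocols, and sequenced for 72 h from 500 ng of RNA.

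Symbols came from a name table (61369 of 61541 identifiers), with 159 more from GENCODE 29. The members and lists were chosen with earlier results of these data known. Counts were fitted with edgeR 4.0.16 (R 4.3.3): TMM, filterByExpr, the quasi-likelihood F test with group as the sole term, and Benjamini-Hochberg adjustment at 0.05. Each SE was obtained from the log2 fold change and F, and gave the 95% interval. Pair ratios used a pseudocount of 0.5 and exact permutation tests (scipy 1.17.1). All 10 members are named. From other lists the called genes were named, at most the 5 with the smallest adjusted p, or the 2 most abundant where none was called, and the 3 genes nearest to a member in course. Other genes are named to account for counts of a list, and 2 genes that the rule names are not reported here. Alternatives were DESeq2 1.42.0 (test, and size factors in edgeR), library totals alone, 2 other filters, limma 3.58.1 voom, the replicate number as a block, genes without same-strand overlap (the 10 members kept whatever their own overlap) and leaving out each library. Chosen after seeing the data were fits with an exonic length offset and with 1 surrogate variable (sva 3.50.0). The scripts were tested on simulated data.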

Additional observations from a re-analysis of the deposited data

How the results depend on the processing

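TAP1, TAP2, TAPBP, TAPBPL and NLRC5 were called higher in all 16 alternative fits. The count of the 10 genes called higher, 5, became 8 with the DESeq2 test and with the length offset, 9 with 1 surrogate variable, and ran from 5 to 7 with 1 library left out. Over all genes, 652 of 10066 were called higher with the DESeq2 test and 589 of 10067 with the length offset. With 1 surrogate variable 1076 of 10067 were, against 562 of 10067 in the main fit. The additions among the 10 were ERAP1 (called in 9 of 16), PDIA3 (6 of 16), ERAP2 (4 of 15) and CALR (3 of 16). CANX was called in 0 of 16, and its log2 fold change was -0.060 with library totals alone and ran from -0.078 to 0.36 with 1 library left out. Library totals alone put the median of all genes at -0.13 against -0.03, with 485 higher and 364 lower calls against 562 and 257 (57.1% of calls higher against 68.6%). All genes called higher numbered 849 with every gene of at least 1 count, 1076 with 1 surrogate variable and from 358 (without untreated replicate 2; 359 without treated replicate 3) to 733 with 1 library left out, and genes called lower 479, 763 and from 96 to 445. RFX5, the only promoter factor called, left 0 with library totals alone, with either other filter and with the length offset, and 0 to 1 with 1 library left out. ER folding enzymes called higher numbered 2 with 1 surrogate variable and 0 to 1 with 1 library left out (1 without untreated replicate 3), N-glycan genes 0 to 1, and unfolded protein response genes 1 with 1 surrogate variable. The immunoproteasome count of 4 was 2 among genes without same-strand overlap, where PSMB9 and PSME2 are not tested, and 3 to 4 with 1 library left out. ATF4 had -0.025 with library totals alone and from -0.022 to 0.23 with 1 library left out. With 1 library left out, the difference in log2 ratio ran from 0.885 to 1.36 for TAP1 to TAP2, from -0.079 to 0.27 for TAPBP to TAPBPL, from -0.33 to 0.82 for ERAP1 to ERAP2 and from 0.22 to 0.68 for CALR to CANX. Pseudocounts moved none by more than the replicate SD. Apart from these constructions, the cause was not tested.

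Same-numbered libraries deviated together for numbers 1 and 3 (correlations 0.65 and 0.37) but not for 2 (-0.0037). The titles give a replicate number and state no pairing. With so few libraries, these correlations cannot decide whether same-numbered libraries belong together. With the replicate block, 9 of the 10 genes, 907 genes in all, 1 ER folding enzyme and, of the unfolded protein response, 0 genes were called higher, 606 genes and 1 unfolded protein response gene (TRIB3) lower. Untreated replicate 2 correlated best with treated replicate 1 (0.25), and untreated replicate 3 with treated replicate 2 (0.41), neither with its own number. ERAP2 had 4 to 6 counts per untreated library, and what more depth would change was not tested.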
